A study of Arabidopsis thaliana with 8 samples.

Results

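Transcript levels of AT4G39690, the gene for MIC60 of the mitochondrial contact site and cristae organising system (MICOS), and of AT5G49840, one of the ClpX-type chaperone genes, were compared between the Arabidopsis petc mutant and wild type (WT). The members are the probes that the platform annotation pairs with exactly 1 of these genes and with no other. Each gene had 1 such probe and 0 probes shared with other genes, so the members were 2 of the 692 single-gene probes and 2 of the 3439 probes in all. Both genes were chosen because of their petc against WT values in these same samples. Their levels and changes in that comparison are therefore descriptions, and no test of them is given.

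MIC60 is anchored in the inner mitochondrial membrane and, as the core of MICOS, shapes the junctions at which cristae meet the inner boundary membrane and links them to the outer membrane. In Arabidopsis it is also known from a complex with the import pore TOM40 that moves lipids between membranes, with galactolipid from the plastid reaching mitochondria under phosphate starvation. ClpX proteins are ATP-driven ring chaperones that unfold substrates and feed them into the ClpP protease, and in plants this pairing is known from mitochondria, whereas the plastid protease works with ClpC and ClpD. In petc the missing Rieske protein belongs to the cytochrome b6f complex of the thylakoid membrane, not to either of these mitochondrial systems.

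The WT group was 4 samples of WT plants of the ecotype Landsberg, and the petc group 4 samples of petc mutant plants of the same ecotype, each group numbered 1 to 4. The labels describe petc as lacking the Rieske protein, the iron-sulfur subunit of the cytochrome b6f complex, and name no transgene or treatment in either group. The sources used here do not give tissue, plant age or growth conditions, nor whether a number stands for a separate plant, extract or hybridisation. Any p-value therefore measures only how these samples differ among themselves, a spread that could be technical. The gene mutated in petc was not analysed here, so it gave no check of the labels.

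Total RNA was measured as 1 intensity per probe and sample on a linear scale of arbitrary units. In each sample 2978 to 3009 probes were above 0 and 2 to 4 probes lay at the ceiling of 100. The samples of a group fell into close pairs, numbers 1 and 2 and numbers 3 and 4. Spearman's rho across probes was 0.975 to 0.988 within a pair and 0.900 to 0.922 between the pairs of a group, so the 4 samples of a group carry less than 4 fully separate readings. The pairs are called sets here, and they come from the data and not from a label. Where fewer cells of a type hold a transcript, or each cell holds less of it, the array value is the same, and these cannot be told apart.

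The MIC60 transcript was several times more abundant in petc. The deposited intensity of AT4G39690 was 1.08, 0.706, 0.922 and 0.777 in WT samples 1 to 4. In petc samples 1 to 4 it was 4.63, 3.91, 5.12 and 5.20. Every petc value was above every WT value, and the lowest petc sample exceeded the highest WT sample by 1.69 on the normalised log2 scale. Over all 2947 tested probes, petc lay wholly above WT in 14.7%, and since the gene was picked from this comparison nothing is read from that share.

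The mean deposited intensity of AT4G39690 was 0.871 ± 0.165 in WT and 4.71 ± 0.593 in petc (SD, n = 4 each). The ratio of these means was 5.41, and after quantile normalisation petc was higher by 2.28 ± 0.17 (SE, 4 samples per group) in log2 units, or 4.85-fold. The petc over WT ratio of deposited intensities was 4.29 for number 1, 5.54 for number 2, 5.55 for number 3 and 6.69 for number 4. The gene was thus higher in petc in 4 of 4 numbers, with the smallest ratio in the sample number where WT was brightest. Across all scalings, filters, left-out samples and treatments of the replicates, its log2 fold change stayed between 2.10 and 2.46.

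The transcript of the ClpX-family gene was lower in petc, and its petc values were split by set. The deposited intensity of AT5G49840 was 0.959, 0.868, 1.14 and 1.20 in WT samples 1 to 4. In petc samples 1 to 4 it was 0.131, 0.165, 0.478 and 0.468. The groups did not overlap, with all petc samples below all WT samples, and within petc numbers 1 and 2 were far below numbers 3 and 4. Over all tested probes petc lay wholly below WT in 17.7%, and nothing is read from that share for a gene picked from this comparison.

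The mean deposited intensity of AT5G49840 was 1.04 ± 0.155 in WT and 0.310 ± 0.188 in petc (SD, n = 4 each). In log2 units petc minus WT was -2.001 ± 0.430 (SE, 4 samples per group), so WT was 4.004-fold higher on the normalised scale, while the ratio of the deposited means, WT over petc, was 3.36. The WT over petc ratio was 7.32 for number 1 and 5.26 for number 2, but 2.39 for number 3 and 2.56 for number 4. The direction was the same in 4 of 4 numbers and the size was not. In log2 units numbers 1 and 2 gave -2.62, while numbers 3 and 4 gave -1.38. An offset of 0.1 before log2, which shrinks changes of dim probes, gave -1.60.

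**Figure D1:**
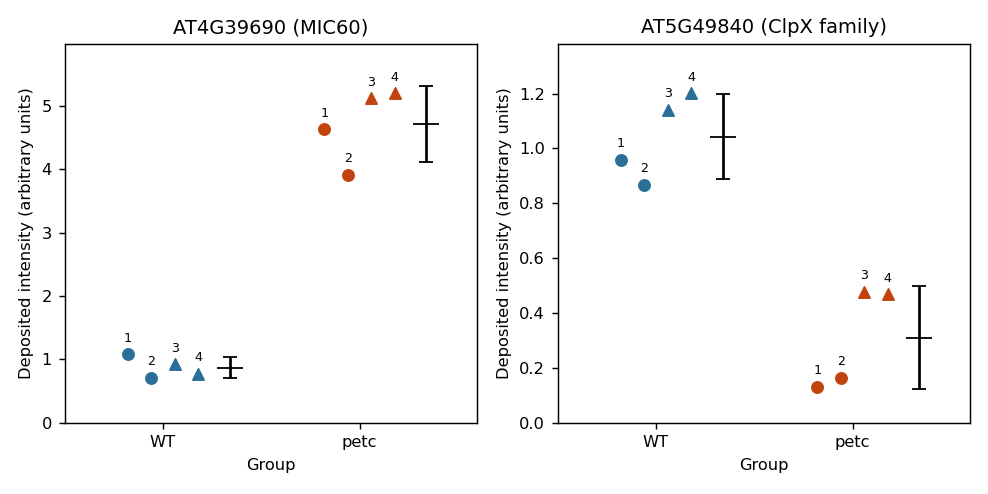
Deposited intensity (vertical axis, arbitrary units, starting at 0) of AT4G39690 and AT5G49840 in the 4 WT and 4 petc samples, labelled by replicate number, with circles for numbers 1 and 2 and triangles for numbers 3 and 4. Bars show the mean and SD of each group (n = 4). The petc values of AT4G39690 lie between 3.91 and 5.20, above all WT values, and those of AT5G49840 lie between 0.131 and 0.478, below all WT values and split by set.

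The changes of the genes were also compared between the sets. For AT5G49840 the petc minus WT change in numbers 3 and 4 was smaller in size than that in numbers 1 and 2 by 1.25 ± 0.18 on the log2 scale (SE of the interaction term of group and set). For AT4G39690 the change in numbers 3 and 4 was larger by 0.36 ± 0.31. Over all tested probes the median size of this difference was 0.20, with 2.14% of the probes above AT5G49840 and 24.5% above AT4G39690. The sets were read from these same values and hold 2 samples per group, so the SE covers only the spread within close pairs and the difference is a description, with no p given.

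The members also differed in how much they varied within a group. In petc the SD of the normalised log2 values of AT5G49840 was 0.961, against a median of 0.206 over the tested probes, and 2.54% of the probes varied more. Its WT SD of 0.237 was close to the median of 0.239. Most of the petc spread lay between sets, since numbers 3 and 4 were above numbers 1 and 2 by 1.64 on the log2 scale in petc and by 0.40 in WT, while the samples of a petc set differed from each other by 0.35 or 0.05. AT4G39690 had an SD of 0.287 in WT and 0.189 in petc. Its WT spread lay within the sets, where the samples differed by 0.62 and 0.32, and in WT numbers 3 and 4 minus numbers 1 and 2 was -0.07. In petc numbers 3 and 4 of AT4G39690 were above numbers 1 and 2 by 0.29, and the samples of a set differed by 0.20 and 0.01. The median size of this gap between sets in petc was 0.27 over the tested probes.

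**Figure D2:**
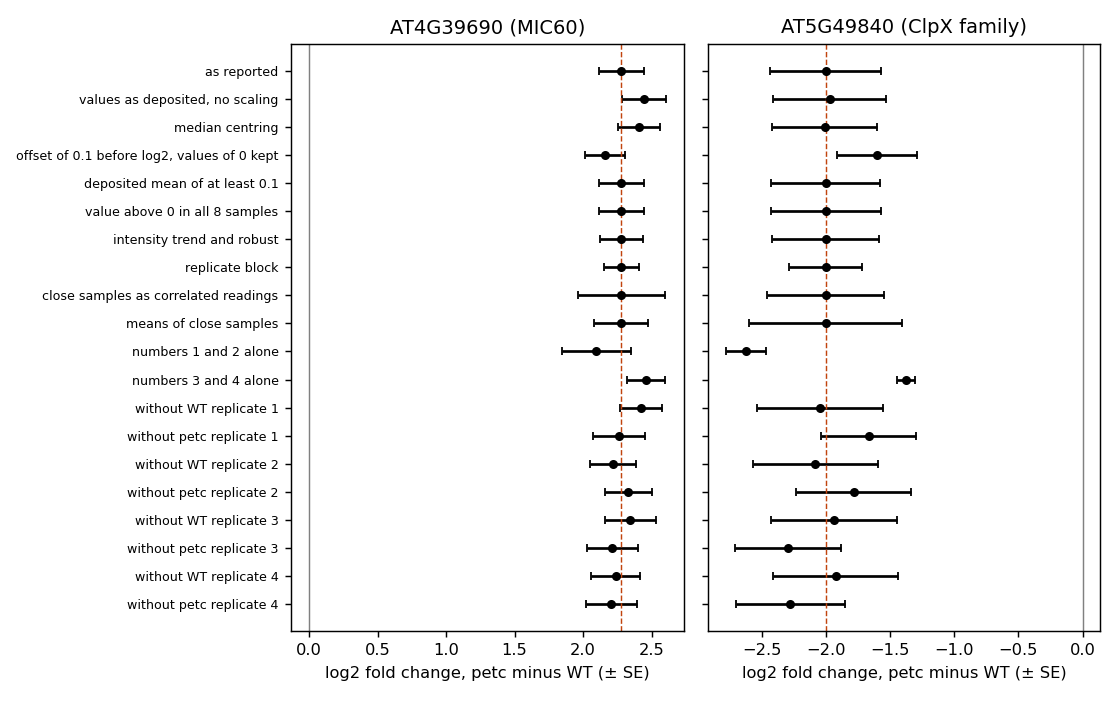
The log2 fold change, petc minus WT, of each gene (horizontal axis, with SE) under the reported processing and each alternative (rows). The dashed line marks the reported value and the solid line 0. AT4G39690 stays between 2.10 and 2.46, whereas AT5G49840 runs from -2.62 in numbers 1 and 2 alone to -1.38 in numbers 3 and 4 alone.

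Among the 595 tested single-gene probes, AT4G39690 had the highest log2 fold change and AT5G49840 the third lowest, ranks that follow from how they were picked. Over all 2947 probes AT4G39690 ranked 4 from the top and AT5G49840 ranked 19 from the bottom. The median log2 fold change of the single-gene probes was -0.04, and 5 of them, both members included, had a change of at least 2 in size. From the 5th to the 95th percentile, the changes of these probes ran from -0.93 to 0.91.

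**Figure D3:**
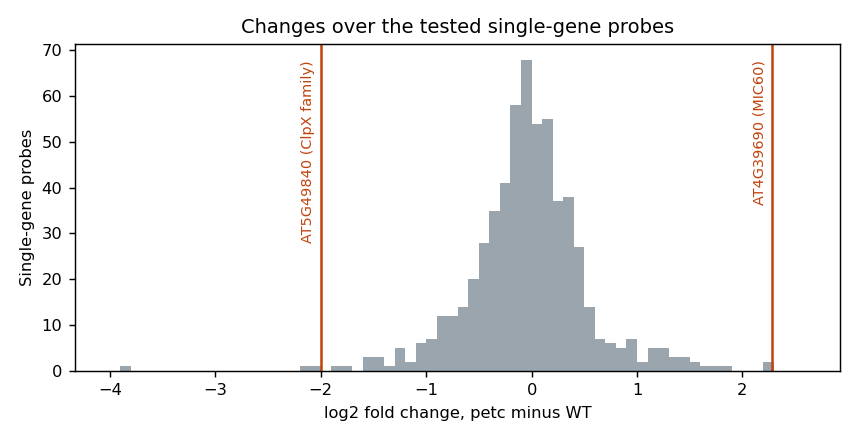
Number of single-gene probes (vertical axis) by log2 fold change, petc minus WT (horizontal axis, bins of 0.1), over the 595 tested. The lines mark AT5G49840 at -2.001 and AT4G39690 at 2.28, in the sparse tails of the distribution.

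Genes with the most similar pattern were found by the root mean square difference over the 8 samples, after each probe's mean log2 value was taken off. Because the difference between petc and WT dominates both patterns, this finds genes with a like change, and no test of these genes is given. The closest to AT4G39690 were AT5G52810, which encodes the reductase SARD4 of pipecolic acid synthesis, with a difference of 0.31 in log2 units, AT3G06570 with 0.35, AT5G44000 with 0.38 and AT3G26630 with 0.40. AT5G52810 came close in both sets, with a change of 2.08 in numbers 1 and 2 and 2.39 in numbers 3 and 4, where AT4G39690 had 2.10 and 2.46. In WT the sets of AT5G52810 stood apart, with deposited intensities of 0.873 and 0.845 in numbers 1 and 2 and 0.580 and 0.600 in numbers 3 and 4.

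No single-gene probe came as close to AT5G49840 as these 4 came to AT4G39690. The nearest were AT3G50350 with a difference of 0.44, AT3G56010 with 0.56, AT4G02800 with 0.58 and AT4G03150 with 0.61. The deposited intensity of AT3G50350 was 1.13, 1.07, 2.17 and 2.14 in WT samples 1 to 4. In petc samples 1 to 4 it was 0.432, 0.325, 0.870 and 0.914. It shared with AT5G49840 the lower values in numbers 1 and 2 of both groups. Its split was of similar size in petc and WT, so the set of numbers 1 and 2 gave -1.51 and the other set -1.38. For AT5G49840 numbers 3 and 4 were above numbers 1 and 2 by 1.64 in petc and 0.40 in WT, in log2 units. AT4G02800 had a change of -1.74 in numbers 1 and 2 and -0.24 in numbers 3 and 4. This split had the same direction as that of AT5G49840, but its deposited intensities were only 0.0222 to 0.102 and its groups overlapped. Its petc samples 3 and 4 differed, at 0.102 and 0.0588, and petc sample 3 was above all WT samples. With the offset before log2 its change over all samples was -0.21, against -0.99 without it. AT4G03150 had the reverse order, with -1.61 and -1.94.

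**Figure D4:**
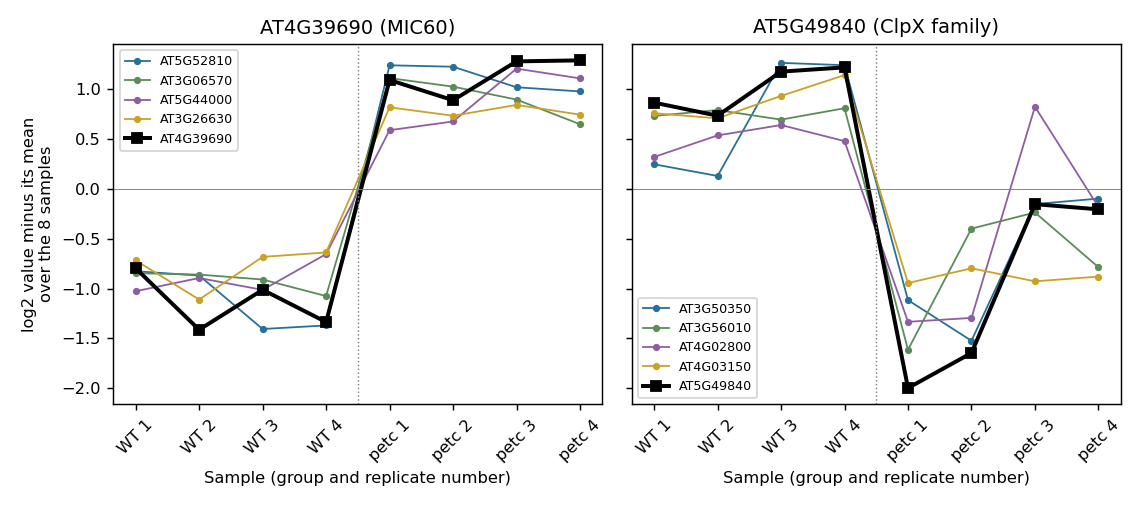
Normalised log2 value minus its mean over the 8 samples (vertical axis) for AT4G39690, AT5G49840 (black) and the 4 single-gene probes nearest to each (colours), by sample (horizontal axis, WT left of the dotted line and petc right of it). The genes near AT4G39690 form a tight band, while those near AT5G49840 scatter in petc, where AT5G49840 itself lies lowest in samples 1 and 2.

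Other genes of these systems were looked up in 6 lists with 103 genes. Of the 14 genes for MICOS and inner membrane organisation, among them the prohibitins and the cardiolipin synthase, only AT4G39690 was measured on a single-gene probe. None of the 20 mitochondrial proteases and chaperones, the 15 genes of import and the outer membrane, the 24 of the respiratory chain and alternative oxidase or the 7 senescence and root markers was measured on one. Whether AT4G39690 differed alone or with its partners could therefore not be read here. The other 2 ClpX-family genes and the ClpP subunits of the Clp list were not measured on single-gene probes either.

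Of the 23 Clp chaperone and protease genes, 2 besides AT5G49840 were tested, both for adaptors of the plastid Clp protease, and neither passed. AT1G68660, for the substrate selector ClpS1, had deposited intensities of 0.198, 0.232, 0.141 and 0.131 in WT samples 1 to 4 and 0.209, 0.227, 0.189 and 0.188 in petc samples 1 to 4. The groups overlapped, and petc minus WT was 0.15 ± 0.19 in log2 units (SE, limma adjusted p = 0.614). AT2G03390, for its partner ClpF, had 0.561, 0.581, 0.464 and 0.488 in WT and 0.542, 0.491, 0.433 and 0.464 in petc. These also overlapped, with -0.13 ± 0.13 (limma adjusted p = 0.527). In limma 0 of 2 passed, where 823 of all 2947 probes, or 27.9%, did. An unadjusted limma p below 0.05 was found for 0 of 2, against 1140 of all 2947 probes. Blocking on the replicate number, 0 of 2 passed, where 1374 or 46.6% of all probes did.

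Neighbouring genes on the chromosome were compared by the 2 nearest tested single-gene probes on each side in gene order. Next to AT4G39690 were AT4G39760, 11 genes after it, and AT4G39570, 17 genes before it. In log2 units the change was -0.01 ± 0.15 for AT4G39570 (SE, limma adjusted p = 0.975) and -0.74 ± 0.45 for AT4G39760 (limma adjusted p = 0.285). Farther out, AT4G39230 had -0.08 ± 0.19 and AT4G40080 -0.34 ± 0.17 (limma adjusted p = 0.184). With each sample left out in turn, AT4G39760 ran from -1.01 to -0.45 and AT4G40080 from -0.48 to -0.23. The groups overlapped in all 4 neighbours of AT4G39690. None of the 4 had a positive change, where the median change over all tested probes was -0.02. AT4G39230 turned to 0.03 with the values as deposited, and AT4G39570 to 0.06 with WT replicate 1 left out.

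Next to AT5G49840 was AT5G49800, 4 genes before it, whose change was 0.32 ± 0.21 in log2 units (SE, limma adjusted p = 0.298), and 0.12 without WT replicate 3. Numbers 1 and 2 gave 0.03 for it, and the other set 0.62. AT5G49590, 33 genes before it, had -0.27 ± 0.32, and AT5G50350, 70 genes after it, had -0.34 ± 0.33. With each sample left out in turn, AT5G49590 ran from -0.44 to -0.09 and AT5G50350 from -0.56 to -0.13, and AT5G50350 was -0.08 with the values as deposited. AT5G52530 lay 349 genes away and had -1.03 ± 0.35 (limma adjusted p = 0.0622), at deposited intensities of 0.0256 to 0.115. Without petc replicate 1 its change shrank to -0.66 while its adjusted p was 0.022, and with the offset before log2 the change was -0.36 (limma adjusted p = 0.0555). Among the 8 neighbours of both genes, 0 passed in limma against 27.9% of all probes. For 1 the unadjusted limma p was below 0.05, against 1140 of all 2947 probes. In 1, AT5G52530, the groups did not overlap, against 32.5% of all probes. Blocking on the replicate number, 3 of 8 passed, against 46.6% of all probes. These were AT4G39760 (limma adjusted p = 0.0293), AT5G49590 (0.0417) and AT5G52530 (0.017), all lower in petc. AT4G40080 did not pass with the block (limma adjusted p = 0.0637). In the fit without the block it passed when WT replicate 3 was left out (limma adjusted p = 0.0441), where 707 of all tested probes did.

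**Figure D5:**
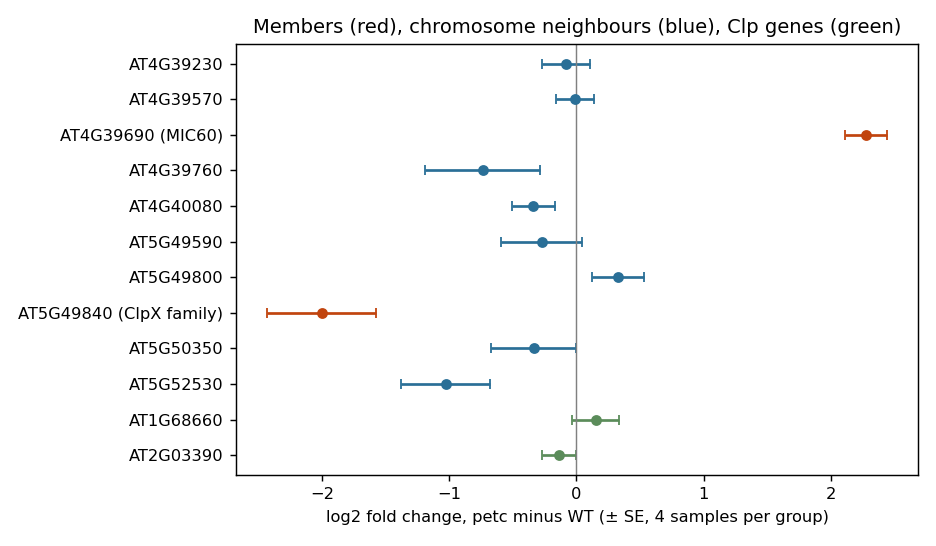
The log2 fold change, petc minus WT (horizontal axis, with SE, 4 samples per group), of the members (red), their 8 nearest tested neighbours in gene order (blue) and the 2 other tested Clp genes (green). The neighbours and Clp genes lie between -1.03 and 0.32, inside the span set by AT5G49840 at -2.001 and AT4G39690 at 2.28.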

How the data were processed

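The deposited files hold linear intensities, and how the authors scanned, background corrected, scaled or filtered them is not given in the sources used. No value was negative, and 430 to 461 probes per sample were at exactly 0. The number of arrays limits the precision. Probes were named through GEO's platform annotation, which pairs 692 probes with 1 gene, 870 with several and 1877 with none, and the RefSeq gene table (TAIR10.1) held 690 of these 692. It was used for names and gene order. The expression values name no genome build of their own, so no coordinates are given. For the lists, 2 further searches of that table's names, for words starting with mitochondri or clp, found 75 and 18 genes and 0 measured ones. They also missed the 4 measured list genes, which that table names only by codes. The 0 therefore does not show that no other such gene was measured.

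Zeros were treated as missing, the others taken to log2 and quantile normalised, and a probe was tested if each group had 3 or more values (2947 probes, 595 with 1 gene). petc and WT were compared with limma 3.58.1 (lmFit, eBayes) in R 4.3.3, with Benjamini-Hochberg adjustment over all tested probes and a threshold of 0.05. The script was tested on simulated data with independent noise in each sample. That simulation held no close pairs, so it does not give error rates for these data. The set difference was the interaction term of group and set in the same tool, given without a p. Figures used matplotlib 3.10.9.

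The members, lists and tests were chosen with earlier results of these data known. Named besides the members are measured list genes, the 4 single-gene probes most like each member and its 2 nearest tested single-gene probes on each side. Same-numbered petc and WT samples deviated together from their group means (Pearson r of 0.542 to 0.623 across probes, all 4 numbers), a pairing that comes from the data. Differently numbered petc and WT samples of the same set did so too, less closely (0.369 to 0.442). The r of same-numbered samples therefore also holds the split by set. The fit without the block is reported, with the block as an alternative. The other alternatives were the scaling, an offset, filters, the variance model, the treatment of close samples and leaving out each sample.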

Additional observations from a re-analysis of the deposited data

Results flagged for a closer look

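Within-group outliers were sought in 44 groups of 4 samples, among the named genes, the number of probes at 0 and the summed intensity. By chance about 2.2 would stand out, and 3 did. The samples of a group fell into close pairs, so this chance figure may not hold here. None was a value of AT4G39690 or AT5G49840. The normalised log2 value of AT3G26630, one of the genes nearest to AT4G39690 in pattern, was -0.18 in WT replicate 2, where the remaining WT samples had a median of 0.25. WT replicate 1 had 440 probes at 0 (median of the other WT samples 431), and petc replicate 4 had 461 (median of the other petc samples 455).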

How the results depend on the processing

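The log2 fold changes of both genes kept their direction under all 19 alternatives run, from 2.10 to 2.46 for AT4G39690 and from -2.62 to -1.38 for AT5G49840, and with a single sample left out from 2.21 to 2.42 and from -2.30 to -1.67. The replicate block left the reported fold changes as they were and changed their SE from 0.17 and 0.43 to 0.13 and 0.28. With close samples as correlated readings the SE rose to 0.32 for AT4G39690 and 0.46 for AT5G49840. With the means of close samples it rose to 0.20 and 0.60. Between the sets, the difference in change of AT5G49840 was 0.80 to 1.43 over the 15 alternatives run for it, with 0.80 under the offset and 1.25 with an intensity trend and robust variances, and that of AT4G39690 was 0.05 to 0.66. All probes past the threshold numbered 823, then 1374 with the replicate block, 345 with close samples as correlated readings and 0 with the means of close samples, 2 against 2, where limma gave 585 an unadjusted p below 0.05. Without scaling, 448 probes rose and 385 fell, against 373 and 450. Neither other Clp gene passed under any alternative. In a set alone, p measures only the spread of close pairs. AT4G40080 passed in numbers 1 and 2 (limma adjusted p = 0.0352), where 683 of all tested probes passed. AT5G50350 (limma adjusted p = 0.0121) and AT5G52530 (0.0176) passed in numbers 3 and 4, where 1035 of all tested probes did. The small changes of 2 neighbours turned in sign. AT4G39230 (-0.08) was 0.0347 as deposited, 0.0207 in numbers 1 and 2 alone, and -0.194 to 0.0293 with each sample left out in turn. AT4G39570 (-0.01) was 0.0217 in numbers 3 and 4 alone and -0.0954 to 0.0576 with each sample left out. The alternatives for genes other than the members were added after seeing the data.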
